A study of Mus musculus with 4 samples.

Results

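The genes described here are 9 genes that mark megakaryocytes, the bone marrow cells that shed platelets, and the platelets themselves: Pf4, Ppbp, Gp9, Gp1ba, Gp6, Itga2b, Itgb3, Vwf and Rgs18. They were read in erythroblasts of Parp2 knockout and wild type mice. For each gene the probe set annotated to its symbol alone was taken, and the brightest of these where there were several. This gave values for 7 of the 9 genes, each with 1 such probe set, out of 19938 genes measured in this way. Gp1ba and Gp6 had no probe set listed to them in the annotation used and were not analysed here.

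Bone marrow cells carrying both the erythroid surface protein Ter119 and the transferrin receptor CD71 were sorted from mice on a C57BL/6 background. One group was wild type (WT) and the other was Parp-2-/-, lacking the DNA-damage-dependent poly(ADP-ribose) polymerase PARP2. There were 2 arrays for each genotype, made from 100 ng of total RNA a sample, and the values are normalised log2 expression values, so that a difference of 1 is a doubling. The sources used here give no treatment, age or sex, and do not say whether a sample came from 1 animal or from several, so the p-values speak of the spread among these 4 samples, which may be technical only. The titles number the arrays 1 and 2 within each genotype.

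Megakaryocytes arise from a progenitor that they share with red cells, and the transcription factors GATA1, TAL1 and GFI1B act in both lineages. Platelets adhere where von Willebrand factor, the product of Vwf, is caught by the glycoprotein Ib-IX-V complex, to which Gp1ba and Gp9 contribute subunits, and where collagen meets glycoprotein VI, encoded by Gp6. They then aggregate through the fibrinogen receptor, an integrin made of the products of Itga2b and Itgb3, and release from their granules the chemokines encoded by Pf4 and Ppbp. RGS18 is a GTPase-activating protein that damps signalling from G protein-coupled receptors in platelets.

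Pf4 and Ppbp lie side by side on chromosome 5 in the same orientation, with transcript starts 3917 bases apart in RefSeq on GRCm38.p6. Their promoters are shown because their array profiles were close to each other, and that of Gp9 on chromosome 6 because its profile was not. Each run holds 250 bases before and 50 bases from the transcript start, 5′ to 3′ on the strand of the gene, from the RefSeq promoter table. Capitals mark matches on either strand to a GATA motif (AGATAA, or its variant TGATAA, or the form AGATAG, or the form TGATAG) or to an ETS motif (CCGGAA, or its variant CAGGAA).
Pf4, chr5:90772185-90772484, plus strand: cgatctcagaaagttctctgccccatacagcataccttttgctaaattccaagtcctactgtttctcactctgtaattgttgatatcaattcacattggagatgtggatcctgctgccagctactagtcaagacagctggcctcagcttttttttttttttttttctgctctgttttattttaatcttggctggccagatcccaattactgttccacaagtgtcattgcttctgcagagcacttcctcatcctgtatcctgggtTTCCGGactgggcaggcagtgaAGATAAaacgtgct
Ppbp, chr5:90768268-90768567, plus strand: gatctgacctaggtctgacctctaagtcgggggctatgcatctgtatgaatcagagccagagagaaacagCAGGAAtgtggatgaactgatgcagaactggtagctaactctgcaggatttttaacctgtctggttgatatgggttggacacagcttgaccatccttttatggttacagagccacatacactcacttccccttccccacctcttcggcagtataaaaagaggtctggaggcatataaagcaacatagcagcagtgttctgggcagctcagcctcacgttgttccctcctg
Gp9, chr6:87777820-87778119, plus strand: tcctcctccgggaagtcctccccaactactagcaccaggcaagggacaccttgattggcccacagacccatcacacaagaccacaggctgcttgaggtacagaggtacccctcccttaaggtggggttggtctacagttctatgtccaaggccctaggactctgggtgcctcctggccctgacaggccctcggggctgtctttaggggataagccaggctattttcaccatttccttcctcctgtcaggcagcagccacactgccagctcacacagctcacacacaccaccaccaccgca

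The Pf4 window held a GATA match (AGATAA, first base at position 37, counted from 1 at the start) and an ETS match (CCGGAA on the opposite strand, first base at position 15). The Ppbp window held an ETS match (CAGGAA, first base at position -180), and the Gp9 window held neither motif. No match overlapped another. Of the 9 genes 6 had a window in the table; 3 of these held a GATA match and 4 an ETS match. Over all 32851 windows of this length, 29.8% held a GATA match and 41.4% an ETS match. These matches describe letters in the windows and are not shown to be binding sites.

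Array medians over the annotated probe sets lay between 5.23 and 5.49. Knockout replicate 2 stood apart with an interquartile range of 1.98, against 2.62 to 2.94 on the other arrays. Parp2 read 8.24 and 7.65 in the wild type and 7.11 and 6.70 in the knockout, the direction the labels call for; which part of the transcript is deleted and which part the probe set reads were not analysed here. The 9 erythroid markers read here lay at log2 levels between 9.32 and 13.01 on the 4 arrays. Neutrophil markers were read on the same arrays at levels of 6.06 to 13.25. In RNA from a sorted population, fewer cells of a type and less RNA per cell cannot be told apart.

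The first question was whether the genotypes differed in these genes. Rgs18 was 3.25-fold lower in the knockout and Gp9 1.53-fold lower, and Itgb3 was 1.37-fold higher. For these 3 of the 7 genes the arrays of the genotypes did not overlap, as was the case for 26.0% of all genes. Pf4 and Ppbp were on average 2.20-fold and 1.94-fold higher, but their wild type arrays lay farther apart than the genotypes did. Itga2b and Vwf differed by less than the spread between arrays of 1 genotype. None of the differences passed limma's test over all probe sets: 0 of the 7 genes had a Benjamini-Hochberg adjusted p under 0.05, against 0% of all 19938 genes, and the adjusted p was 0.9999 for each of the 7. At an unadjusted p under 0.05 limma gave 1 of the 7, Rgs18, against 2.11% of all genes. An exact two-sided permutation test of 2 arrays against 2 cannot go below p = 0.333, so none was computed for single genes.

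**Figure D1:**
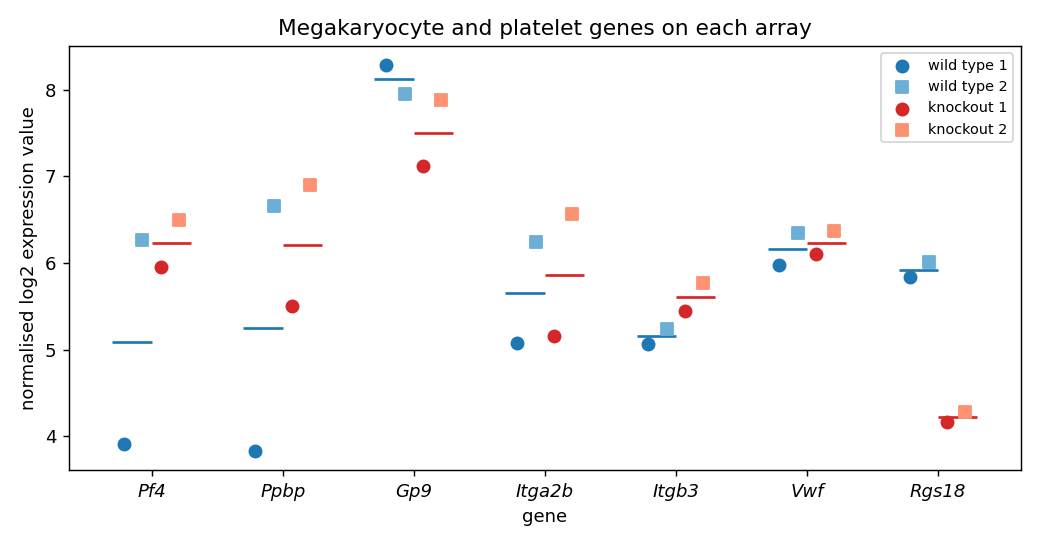
Normalised log2 expression value (vertical axis) of the 7 measured genes on the 4 arrays. Points are arrays (circles, replicate 1; squares, replicate 2; blue, wild type; red, knockout) and short lines are the means of the 2 arrays of a genotype. Wild type replicate 1 sits at 3.91 for Pf4 and 3.83 for Ppbp, apart from the other 3 arrays, while Rgs18 separates the genotypes.

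The chemokine genes came first. Pf4 encodes platelet factor 4, a heparin-binding chemokine stored in alpha granules, and probe set 10523134 read 3.91 and 6.27 on wild type replicates 1 and 2 and 5.96 and 6.50 on knockout replicates 1 and 2. Wild type replicate 1 was the low array, the other 3 lay close together, and the groups overlapped. The difference was +1.14 ± 0.74 (SE, n = 2 per genotype) on the log2 scale, with a 95% interval of -0.63 to 2.91. Between the arrays numbered 1 the difference was +2.04, and between those numbered 2 it was +0.23. Without wild type replicate 1 it was -0.04.

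Ppbp encodes pro-platelet basic protein, the precursor of a neutrophil-attracting chemokine. Its probe set, 10523128, read 3.83 and 6.66 on wild type replicates 1 and 2 and 5.50 and 6.90 on knockout replicates 1 and 2. Both arrays numbered 2 were above both numbered 1, wild type replicate 1 was again lowest, and the genotypes overlapped. The difference was +0.96 ± 0.93 (SE, n = 2 per genotype), with a 95% interval of -1.25 to 3.17, and without wild type replicate 1 it was -0.46. Between the arrays numbered 1 it was +1.67 and between those numbered 2 it was +0.24. Of the 21 pairs among the 7 genes, Pf4 and Ppbp had the second closest profiles, with a root mean square distance of 0.359 after each gene was centred on its 4-array mean; the closest pair was Itgb3 and Vwf, at 0.200, both of which varied little.

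Of the adhesion receptor genes, Gp9 encodes glycoprotein IX, the small subunit that the Ib-IX-V complex needs to reach the platelet surface. Probe set 10539818 read 8.29 and 7.96 in the wild type and 7.13 and 7.89 in the knockout, here and from now on with replicate 1 first. The knockout arrays were the 2 lowest, but knockout replicate 2 was only 0.07 below wild type replicate 2. The difference was -0.62 ± 0.42 (SE, n = 2 per genotype), with a 95% interval of -1.60 to 0.37; it was -0.24 with knockout replicate 1 left out and -0.996 with knockout replicate 2 left out. Gp9 was the only one of the 7 genes with its highest value on wild type replicate 1, the array on which Pf4, Ppbp, Itga2b, Itgb3 and Vwf were lowest.

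The integrin subunits came next. Itga2b, the alpha subunit also known as CD41, read 5.08 and 6.24 in the wild type and 5.16 and 6.56 in the knockout (probe set 10391697). Each array numbered 2 was more than 1 log2 unit above the array numbered 1 of its genotype, by 1.16 in the wild type and 1.40 in the knockout, and the genotypes overlapped. Over all genes 1.31% were higher by at least 1 on number 2 in both genotypes, and among the 7 genes Itga2b and Ppbp did. The difference between genotypes was +0.20 ± 0.61 (SE, n = 2 per genotype; 95% interval -1.24 to 1.65); leaving out wild type replicate 1 gave -0.37 and leaving out knockout replicate 2 gave -0.50.

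Itgb3, the beta subunit, which also pairs with other alpha subunits outside platelets, read 5.07 and 5.24 in the wild type and 5.45 and 5.77 in the knockout (probe set 10381809). Both knockout arrays were above both wild type arrays. The difference was +0.45 ± 0.36 (SE, n = 2 per genotype; 95% interval -0.41 to 1.32), and it stayed between +0.29 and +0.61 with any 1 array left out.

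Vwf encodes von Willebrand factor, which endothelial cells make as well as megakaryocytes. Probe set 10541910 read 5.97 and 6.34 in the wild type and 6.10 and 6.37 in the knockout, 4 values that interleaved. The difference was +0.08 ± 0.37 (SE, n = 2 per genotype; 95% interval -0.80 to 0.96), which turned to -0.10 with wild type replicate 1 left out and to -0.06 with knockout replicate 2 left out. The 10 endothelial markers read between 3.76 and 6.79 and overlapped between the genotypes in all 10 cases. Their median difference of +0.13 joined opposite signs by number. The median was -0.21 between the arrays numbered 1, with 1 of 10 higher, and +0.43 between those numbered 2, with 10 of 10 higher. Only 1 of the 10 lay above the median of probe set means, 5.36. Of all 10060 genes not above it, 4586 were higher between the arrays numbered 1 and 8312 between those numbered 2. The medians of these genes were -0.03 and +0.37. The 2 endothelial markers of lowest p were the receptor genes Tek (+0.32) and Kdr (+0.30).

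Rgs18 was the gene with the lowest p of the 7. Probe set 10358421 read 5.84 and 6.01 in the wild type and 4.17 and 4.28 in the knockout. The arrays of each genotype lay within 0.17 of each other, and both knockout arrays were far below the wild type pair. The difference was -1.70 ± 0.35 (SE, n = 2 per genotype), with a 95% interval of -2.54 to -0.86, and it stayed between -1.78 and -1.61 with any 1 array left out. Its unadjusted limma p of 0.00213 ranked 21st among 23410 probe sets. It was also the only 1 of the 7 whose mean lay below the median of probe set means, 5.36; differences of dim probe sets tend to be understated by robust multi-array averaging (RMA).

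**Figure D2:**
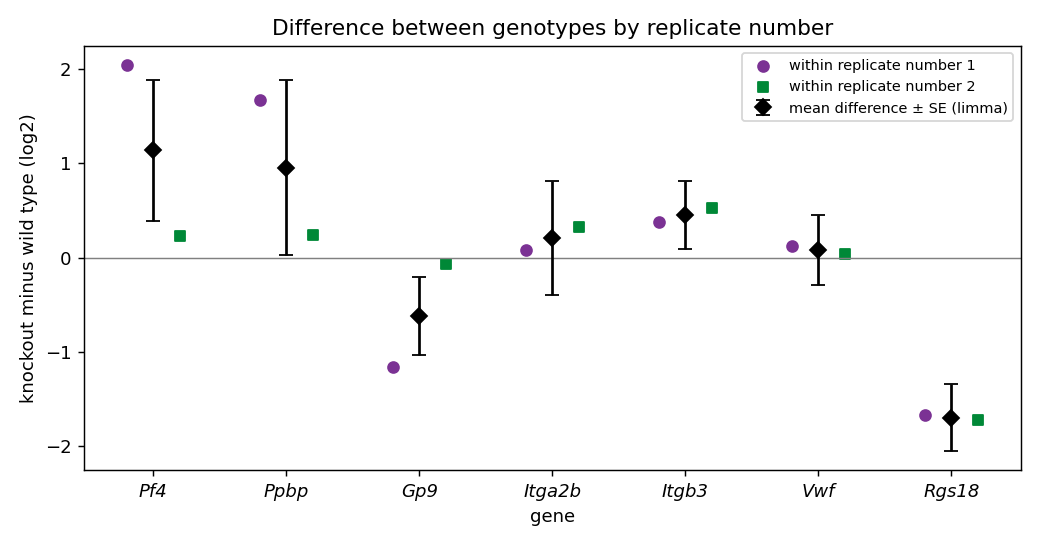
Knockout minus wild type on the log2 scale (vertical axis) for the 7 genes. Diamonds with bars give the mean difference ± SE from limma, circles the difference between the arrays numbered 1 and squares that between the arrays numbered 2. The Pf4 values are 2.04 and 0.23 and the Gp9 values -1.16 and -0.07, while the Rgs18 values, -1.67 and -1.73, lie close together.

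Taken as a list, 5 of the 7 genes were higher in the knockout and 2 were lower, with a median difference of +0.20, against 58.5% of all genes higher, 41.5% lower and a median of +0.08. The all-gene values moved with signal level. Among the 9878 genes whose mean lay above the median of probe set means, 41.5% were higher and the median was -0.09. Among the other 10060 genes 75.2% were higher and the median was +0.17. This lay mostly between the arrays numbered 2, with medians of -0.26 and +0.37, against +0.04 and -0.03 between those numbered 1. The part of the narrow interquartile range of knockout replicate 2 in it was not tested. Of the 7 genes the 6 above that level, all but Rgs18, had 5 higher, 1 lower and a median of +0.33. Leaving out wild type replicate 1 left 1 of the 7 genes higher, Itgb3, and a median of -0.37 (all genes, 60.1% higher and +0.10). Leaving out knockout replicate 2 left 3 of the 7 higher and a median of -0.06 (all genes, 50.7% higher and +0.01). Groups did not overlap for 3 of the 7, 1 with the knockout above and 2 with it below, where 26.0% of all genes did not overlap, 16.4% with the knockout above and 9.62% below. The sign of the difference was the same between the arrays numbered 1 and between those numbered 2 for 7 of the 7 genes, and for 49.2% of all genes. The numbers are not shown to pair the arrays. Between the arrays numbered 2 the differences of Vwf (+0.03) and Gp9 (-0.07) were small.

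Between the 2 wild type arrays, Pf4, Ppbp, Itga2b and Vwf differed by more than the genotypes did. On the wild type arrays number 2 exceeded number 1 for 6 of the 7 genes (45.7% of all genes), by as much as 2.84 for Ppbp and 2.36 for Pf4; on the knockout arrays it did so for 7 of 7 (61.3% of all genes), by 0.11 to 1.40. Erythroid markers shifted the same way, with 8 of 9 higher on number 2 in each genotype and a median of +0.85 in the wild type and +0.32 in the knockout. The macrophage genes Vcam1 and Mrc1, named after their values were seen, shifted by more. They did so by 2.31 and 2.34 in the wild type and by 2.09 and 1.65 in the knockout. In the monocyte and macrophage list 4 of 7 were higher on number 2 in the wild type and 5 in the knockout. Ccr2 of this list ran the other way, by -1.76 in the wild type and -0.54 in the knockout. In the neutrophil list 2 and 1 of 11 were. Summed on the linear scale, the erythroid markers ranged from 12400 to 27670 on the wild type arrays and from 16950 to 24880 on the knockout arrays, lowest on wild type replicate 1, the array with the lowest Pf4 and Ppbp. The part of the erythroid shift in the chemokine values was not tested.

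**Figure D3:**
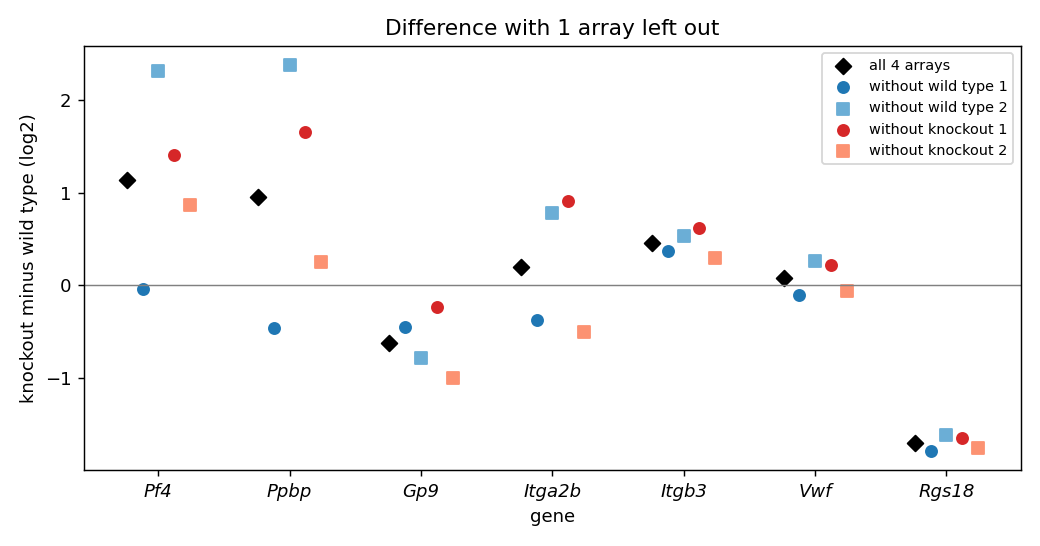
Knockout minus wild type on the log2 scale (vertical axis) for the 7 genes with all 4 arrays (diamonds) and with each array left out in turn (circles and squares). Pf4 runs from -0.04 to 2.32 and Ppbp from -0.46 to 2.37, while Rgs18 stays between -1.78 and -1.61.

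Genes with the most similar profiles were then looked for, as a description over 4 arrays, among the brighter of the measured genes. Closest to Pf4 were Cnnm2, a gene of magnesium transport (root mean square distance 0.10), Pdzk1ip1 (0.158) and Specc1 (0.160), out of 9336 genes. All 3 were lowest on wild type replicate 1. Cnnm2 read 6.31 there and 8.40 on wild type replicate 2, and 8.26 and 8.70 in the knockout. Closest to Rgs18 were Lypla2, an acyl-protein thioesterase (0.127), Slfn1, a Schlafen family gene of lymphoid and myeloid cells (0.128), and Tbck (0.141), out of 9337 genes. Their differences between knockout and wild type were -1.94 for Lypla2, -1.505 for Slfn1 and -1.64 for Tbck. These differences follow from the choice of genes by profile, as does the low wild type replicate 1 of the 3 closest to Pf4.

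A wider list of 99 further megakaryocyte and platelet genes, grouped by role, gave 89 measured genes. Of these 62 were lower and 27 higher in the knockout, with a median of -0.15 where all genes had +0.08. Both knockout arrays were below both wild type arrays for 28 and above them for 6, where 9.62% of all genes were below and 16.4% above in this way. Bright genes tended to be lower in the knockout between the arrays numbered 2, but not between those numbered 1. The 57 of the 89 above the median of probe set means were therefore also set beside all genes above it. Of the 57, 44 were lower, with a median of -0.22, against 58.5% and a median of -0.09. For 23 of the 57 the knockout arrays were below without overlap, against 13.9%. By number, the medians of the 57 were -0.24 (arrays 1) and -0.38 (arrays 2), against +0.04 and -0.26 for all genes above that level. With the 7 genes included, 64 of 96 were lower, and 55 to 68 were with 1 array left out. In those settings 50.7% to 60.1% of all genes were higher. Limma called 0 of the 89 over all probe sets, and 4 at an unadjusted p under 0.05, all lower (at that threshold 1.76% of all genes were lower and 0.356% higher): F13a1, Actn1, Pla2g4a and Plek.

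Among granule genes other than Pf4, Ppbp and Vwf, 7 of 16 were higher and 9 lower, with a median of -0.08. F13a1, the A subunit of coagulation factor XIII, which monocytes and macrophages also make, read 6.87 and 6.56 in the wild type and 4.97 and 5.23 in the knockout, a difference of -1.61 ± 0.36 (SE, n = 2 per genotype). Factor V gene F5 (-0.85) and Vps33b (-1.02), needed for alpha granule formation, had lower values without overlap. Of the 16 genes, 5 had the knockout arrays below without overlap and 3 above (9.62% and 16.4% of all genes). The 3 above were Thbs1 (+0.48), Pdgfa (+0.46) and Mmrn1 (+0.35). With the 3 genes included, differences in this group ran from -1.61 for F13a1 to +1.14 for Pf4.

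Of 17 signalling genes other than Rgs18, 15 were lower, with a median of -0.36, and for 10 of the 17 the knockout arrays were below both wild type arrays (9.62% of all genes, and 13.9% of those above the median of probe set means). Plek, the protein kinase C substrate pleckstrin, differed by -1.09, Bin2 by -1.28 and the tyrosine kinase gene Syk by -0.95. These genes are used by leukocytes as well as platelets. Of cytoskeletal genes 10 of 13 were lower, with a median of -0.21. Without overlap, the knockout arrays were below for 5 of the 13 and above for 2 (9.62% and 16.4% of all genes). The 2 above were Tubb1 (+0.50) and Tuba4a (+0.19). The alpha-actinin gene Actn1 read 7.55 and 7.45 in the wild type and 6.10 and 6.01 in the knockout, a difference of -1.44 ± 0.35 (SE, n = 2 per genotype), followed by Tuba8 (-1.06) and the tropomyosin gene Tpm4 (-0.69).

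Adhesion receptors other than Gp9, Itga2b and Itgb3 had 10 of 14 lower, with a median of -0.12. Fcer1g, the Fc receptor gamma chain that carries the signal of glycoprotein VI and of leukocyte Fc receptors, differed by -1.08 and Pecam1 by -0.61, while Treml1, a receptor of platelet alpha granules, was at +0.53 with overlap. Gp5, named after its values were seen because its product joins the complex of glycoprotein IX, read 6.60, 5.11, 4.87 and 5.86 in the order wild type 1, wild type 2, knockout 1, knockout 2. Its difference between genotypes had opposite signs by number, -1.73 and +0.74.

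Receptors for soluble agonists had a median of +0.23 over 8 genes, 5 of them higher, and for all 8 the genotypes overlapped. Ptger3, a prostaglandin E receptor, was at +0.86, with knockout replicate 1 alone at 6.87 against 5.10 to 5.15 on the other arrays. The thrombin receptor genes F2rl3 and F2rl2 were at +0.38 and +0.28. Of the 3 measured eicosanoid genes, the phospholipase gene Pla2g4a, which frees arachidonic acid, was at -1.01, Alox12 at +0.18 and the thromboxane synthase gene Tbxas1 at -0.20.

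Thrombopoietin signalling had 5 of 6 genes lower and a median of -0.27, with Stat3 at -0.80, Stat5b at -1.0 and the adaptor gene Sh2b3 at +0.26. Transcription factors had 8 of 12 lower and a median of -0.13. Fli1, an ETS factor that favours megakaryocytes over red cells, read 8.27 and 7.18 in the wild type and 7.09 and 6.35 in the knockout, a difference of -1.01. Runx1 was at -0.57 and Tal1, used in both lineages, at +0.27.

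**Figure D4:**
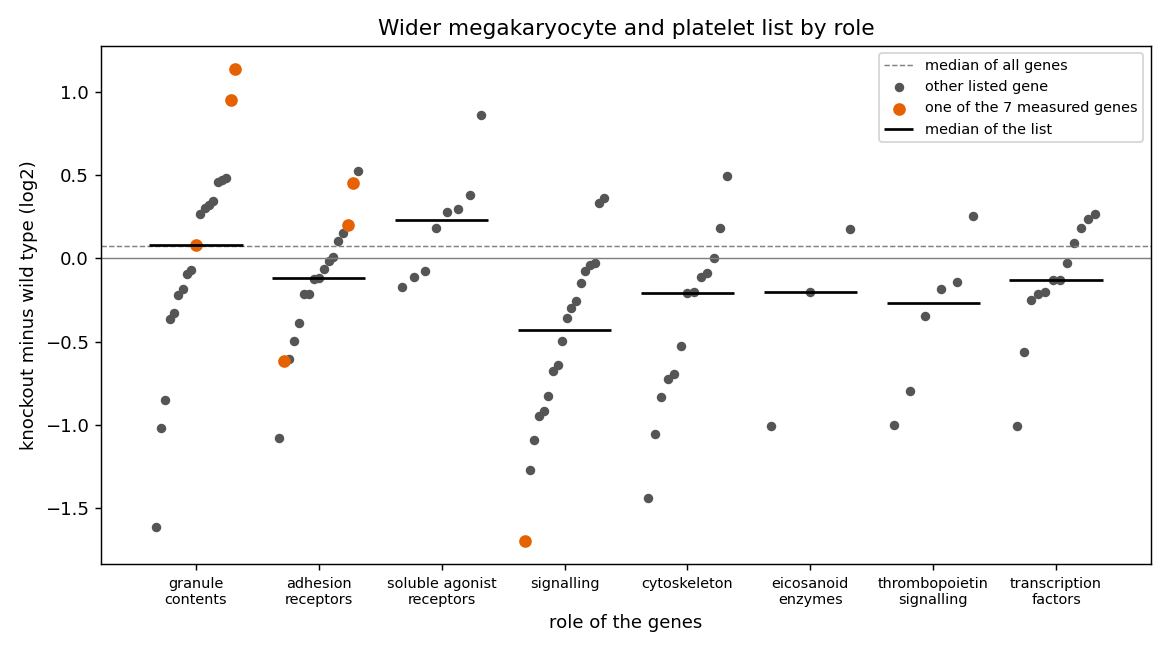
Knockout minus wild type on the log2 scale (vertical axis) for the 96 measured genes of the wider list, by role (horizontal axis). Orange points are the 7 genes and grey points the other listed genes, sorted by difference within a role, black lines are the medians of each role, and the dashed line is the median of all genes, 0.08. Signalling genes have a median of -0.43 with Rgs18 included, and granule genes spread from -1.61 to 1.14.

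Markers of other blood cells were read on the same arrays. All 11 neutrophil markers had lower values in the knockout, with a median of -1.60 and no overlap for 10 (9.62% of all genes had the knockout below without overlap), and their summed linear level was 32640 to 37470 on the wild type arrays and 18430 to 23080 on the knockout arrays; Ltf, a granule protein gene, was at -1.35 and Ly6g at -1.74. Of 7 monocyte and macrophage markers 6 were lower, with a median of -0.97 and summed levels of 4668 to 5327 against 2574 to 2909, among them Adgre1 (-1.12) and Lyz2 (-0.97). Of 6 B cell markers 5 were lower, with a median of -1.22 and summed levels of 1033 to 1408 against 475 to 563, Ms4a1 (-2.002) and Vpreb1 (-2.90) among them. The lowest value of any gene on any array was 1.76 and the highest 13.7, so a value above 0 does not by itself show that these cells were present. The neutrophil markers read 6.06 to 13.25, the monocyte and macrophage markers 4.69 to 12.05 and the B cell markers 4.34 to 8.99. The means of all 11 neutrophil markers lay above the median of probe set means, 5.36. The sort on Ter119 and CD71 is a gate that should leave these cells out. The shifts ran in the direction of Rgs18, F13a1, Plek, Bin2 and Fcer1g, which leukocytes also express, and their part in those differences was not tested.

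Other lists did not separate the genotypes in this way. Erythroid markers overlapped in 9 of 9 cases, with a median of +0.08 (+0.34 between the arrays numbered 1 and -0.23 between those numbered 2), Alas2, the erythroid enzyme that starts heme synthesis, at +0.55 and Epor at -0.23. Of 7 stem and progenitor genes 4 were higher and 3 lower, with a median of +0.01; the stem cell factor receptor gene Kit was at -1.26, with wild type replicate 1 at 8.09 against 5.73 to 5.98 elsewhere, and Slamf1 at +0.28. The summed linear level of the 7 megakaryocyte and platelet genes was 529 and 686 in the wild type and 413 and 698 in the knockout, so the genotypes overlapped. Gp9, the highest of the 7 on every array (7.13 to 8.29), weighs most in this sum.

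**Figure D5:**
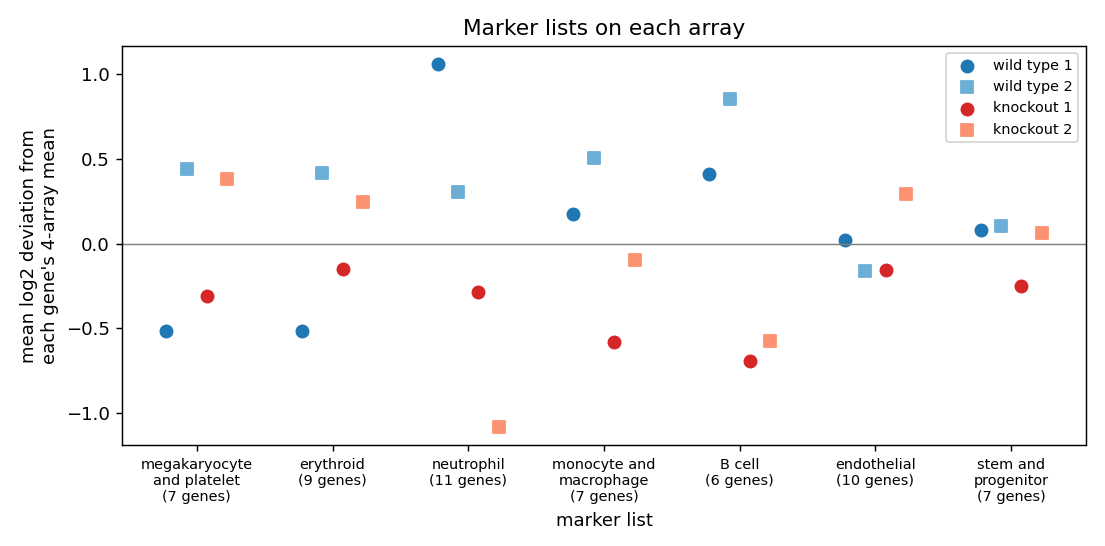
Mean deviation of each marker list from the 4-array mean of its genes, on the log2 scale (vertical axis), on each array (circles, replicate 1; squares, replicate 2; blue, wild type; red, knockout). The mean over the 7 megakaryocyte and platelet genes follows the replicate number, at -0.52 and -0.31 on the arrays numbered 1 and 0.44 and 0.38 on those numbered 2, as the erythroid list does, although Gp9 ran the other way in the wild type (number 2 minus number 1, -0.33) and Rgs18 separated by genotype; the neutrophil, monocyte and B cell lists are lower on both knockout arrays.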

How the data were processed

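The authors deposited normalised log2 values for 35511 probe sets on 4 arrays. RMA, limma and R 3.0.2 are named per the submitters' processing notes; their roles are not stated. The deposited log2 values were used as they stand. Probe sets were named through the platform annotation (21789 with 1 symbol, 1621 with several, 12101 unnamed).

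Genotypes were tested by limma 3.58.1 (R 4.3.3, lmFit then eBayes, genotype as the only term) on 23410 annotated probe sets, with Benjamini-Hochberg adjustment; the fit had 2 residual and 4.77 prior degrees of freedom. In 10 simulations of 23410 probe sets, 200 of them changed, limma called 1.4% of changes of 2 and 80.8% of changes of 4 on the log2 scale. The number of arrays limits the precision.

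The genes and lists were chosen with earlier results of these data known. The split of genes by signal level was added after seeing the data. Named were all 7 measured genes, the 3 of lowest unadjusted p in each role, the 2 in each other marker list and the 3 closest in profile to Pf4 and Rgs18. Outside this rule, Gp5, Vcam1, Mrc1, Ccr2, Tubb1, Tuba4a, Thbs1, Pdgfa and Mmrn1 were named after their values were seen. The alternatives tried were a replicate block, each array left out, centred arrays, quantile normalisation again, array weights, moderation with trend and robust priors, the whole table, brighter probe sets only, averaged probe sets and other thresholds. Titles open with 1 or 2 in the wild type and with 3 or 4 in the knockout, a number that cannot be told apart from the genotype.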

Additional observations from a re-analysis of the deposited data

How the results depend on the processing

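Probe sets called over the whole table numbered 0 with all arrays, 274 with the replicate block, 8 with trended and robust moderation, 486 at an unadjusted p under 0.05, and 0 to 62 with 1 array left out (5 without wild type replicate 1, 62 without wild type replicate 2). With an array left out, 1 genotype had a single array, which was assumed to vary like the other genotype. Of the 7 genes (0 past), 1 passed with the replicate block and 1 at an unadjusted p under 0.05, Rgs18 in each case; of the wider list 3 passed with the replicate block, Rgs18, F13a1 and Actn1. The block left 1 residual degree of freedom and an SE of 0.406 for every gene, and gave Rgs18 an adjusted p of 0.00497 (limma). The numbers are not shown to pair the arrays: 2 pairs share a number, and their differences by number correlated at 0.468 over probe sets. The count of genes higher in the knockout was 1 to 5 with 1 array left out, an alternative chosen after seeing the data. Rgs18, Gp9 and Itgb3 kept their sign in every setting run, while Pf4, Ppbp, Itga2b and Vwf turned with 1 array left out. No setting other than those named gave a call among the 7 genes, and Rgs18 was not among the brighter probe sets.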
